A study of Hydra vulgaris with 40 samples.

Results

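The genes described here are 200 of the 17438 gene models of Hydra vulgaris (H. vulgaris) with values in these data. Each was highest in the tentacles among 5 adult tissues and did not rise by 1.2 times or more from early to late buds. A gene qualified when its tentacle level was at least 1.5 times that of the second tissue, its mean in the tentacles was at least 5, and its level at bud stage 10 was below 1.2 times that at stage 1. Levels in these ratios were means of both samples of a condition plus 1. Of the 2666 genes that met the tentacle conditions, 665 also met the bud condition, and the 200 with the largest ratio of tentacles to the second tissue were taken. The identifiers carry no gene names, and none of the 17438 matched the RefSeq gene table, so that the genes are given by scaffold and model number. For the same reason the labelled tissues were not checked against marker genes.

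The samples were 40 RNA-seq libraries, 2 for each of 20 conditions, from H. vulgaris polyps that had been starved for at least 1 day, and the labels give no transgene, mutation or drug for any of them. The body map held tentacles, hypostome, foot, budding zone and body column of adults. The budding course held bud heads of 8 stages (1, 3 to 8 and 10), and the labels do not say how many buds made up a sample. The regeneration course held bisected polyps that regenerated a head, with 1 animal per sample. Their apical tissue was taken at once (0 h) or at 6 later times up to 48 h, and the position of the cut is not stated. Values are in TPM, an abundance of transcripts relative to all others in a sample that corrects for transcript length, and were adjusted by the authors for batch effects and for differences in distribution. The column sums lay between 997030 and 1014380, and the rank correlation of the 2 samples of a condition between 0.914 and 0.981. In 18 of the 20 conditions both samples held the same values once sorted, within 0.011, so that p-values over these samples may be too small. Bud stages 6 and 7 stood apart, since the sorted values of replicate 1 of each were those of replicate 2 of the other. Slopes over buds and their comparison with regeneration are given with and without these stages, and the other bud results include them. Read depth is unknown, because the files used hold no counts.

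Hydra tentacles are thin extensions of the body wall around the mouth, which lies on the hypostome. Their outer layer is made of battery cells, large epithelial cells in which stinging cells (nematocytes) and sensory neurons are embedded, and nematocytes mature in the body column and then move out into the tentacles. A bud grows from the lower body column, forms a hypostome and a ring of tentacles, and then detaches. A polyp cut below the head rebuilds the hypostome and the tentacles from body column tissue.

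The tissue levels chose the 200 genes and are given without a test. The median of their tentacle means was 22.6 adjusted TPM, with a range from 5.28 to 6512. The medians in the other tissues were 1.96 (hypostome), 1.26 (foot), 0.795 (budding zone) and 0.712 (body column). The hypostome, which borders the tentacles, was the second tissue for 119 genes, the foot for 39, and the body column and the budding zone for 21 each. The ratio of tentacles to the second tissue had a median of 5.36 and was 10 or more in 39 genes. Both tentacle samples lay above all 8 other body map samples in 198 of the 200 genes. The higher tentacle sample was a median of 1.15 times the lower, and in 9 genes the samples were more than 2-fold apart. In 70 genes both samples of at least 1 other tissue were listed at 0. These are bulk tissues, in which fewer cells of a type and less RNA per cell cannot be told apart.

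The largest ratio of tentacles to the second tissue was that of Sc4wPfr_106.g23603, at 236. Its tentacle samples were at 361.79 and 107.46 adjusted TPM, and its 8 other body map samples and all 14 regeneration samples were listed at 0. The gene was thus listed above 0 only in tentacles and in buds, where its 16 samples lay between 13.12 and 16.65. Sc4wPfr_197.g11032 came next, with a ratio of 122. It stood at 580.38 and 497.19 in tentacles, at 4.60 and 2.25 in the hypostome and at 0 in the foot, the budding zone and the body column. Its 14 regeneration samples were also at 0, while its bud samples ran from 30.90 to 39.08.

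The highest tentacle level was that of Sc4wPfr_520.g29352, with 6705.30 and 6318.35 adjusted TPM, and its hypostome samples were at 761.11 and 656.77. Sc4wPfr_197.g11033, the model next to Sc4wPfr_197.g11032 on its scaffold, was second with 1145.44 and 1030.56 in tentacles and 22.43 and 11.32 in the hypostome. As in its neighbour, no adjusted TPM was listed in the foot, the budding zone or the body column, and only 1 regeneration sample, at 48 h, was above 0, with 2.24. Both neighbours were therefore tentacle genes with no or almost no value in the regenerating tissue. Whether they share reads through similar sequence was not tested.

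The limits of the choice fell within a continuous range of values. The last gene inside by ratio was Sc4wPfr_423.g13444 at 3.267, and the first outside was Sc4wPfr_828.1.g12772 at 3.265. The highest ratio of bud stage 10 to stage 1 inside was 1.199 in Sc4wPfr_251.g2439, and the lowest outside, among genes with a large enough tentacle ratio, was 1.207 in Sc4wPfr_618.g14866. The lowest tentacle mean inside was 5.28 adjusted TPM in Sc4wPfr_286.g8045, whose tentacle samples were at 4.28 and 6.28. When the 200 genes were chosen with replicate 1 alone, 195 were also highest in tentacles in replicate 2, but only 117 had a bud ratio below 1.2 there. When they were chosen with replicate 2, the corresponding counts in replicate 1 were 194 and 156. The tentacle condition thus carried over between samples in nearly all genes and the bud condition in fewer of them. For comparison, 26.1% and 31.4% of all tentacle genes had a bud ratio below 1.2 in replicates 2 and 1.

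**Figure D1:**
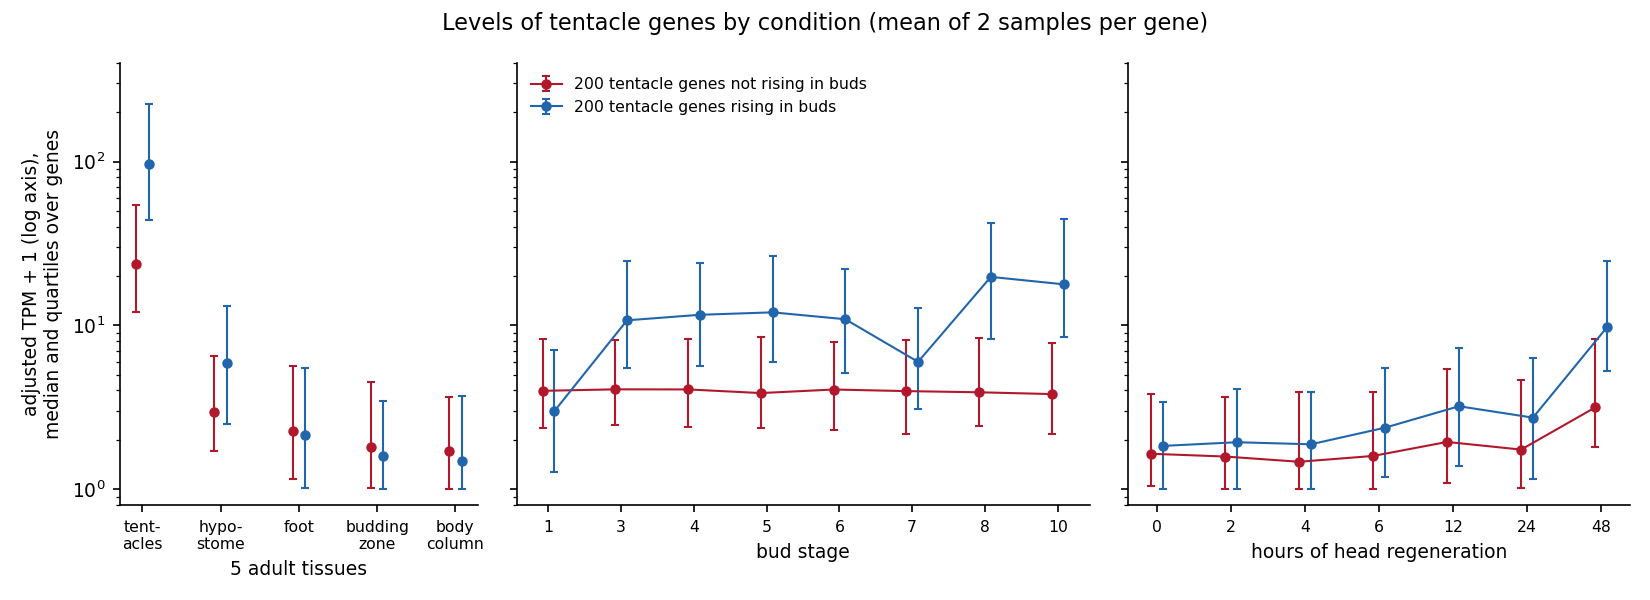
Adjusted TPM plus 1 (log axis) of 200 tentacle genes not rising in buds (red) and of the 200 tentacle genes with the largest tentacle ratio that rise in buds (blue), by tissue, bud stage and hour of regeneration. Points are medians over genes of the mean of 2 samples and bars are quartiles over genes, and the red medians, before 1 is added, stay between 2.80 and 3.07 in buds and go from 0.643 to 2.15 in regeneration.

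Over budding the median of the 200 genes was nearly level. Their median adjusted TPM was 2.98 at stage 1, 3.07 at stage 3, 3.06 at stage 4, 2.86 at stage 5, 3.06 at stage 6, 2.97 at stage 7, 2.90 at stage 8 and 2.80 at stage 10. The rule fixed an upper limit for stage 10 against stage 1, and it set no lower one. The ratio of the 2 stages had a median of 0.980, lay between 0.9 and 1.1 in 134 genes and was below 0.8 in 12. The lowest ratio, 0.302, was that of Sc4wPfr_39.g20537, which stood at 29.61 and 7.72 at stage 1 and at 1.11 and 8.78 at stage 10. Its 2 samples at each of these stages were thus several-fold apart, and the stages overlapped.

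The stages between were tested, because the rule did not use them. In a limma fit of log2(value + 1) over the order of stages 3 to 8, 0 of the 200 genes rose and 0 fell at a Benjamini-Hochberg adjusted p under 0.05. Over all genes the share called was 0% in each direction, so that no gene of the table passed this test. At an unadjusted p under 0.05, 3 members rose and 3 fell, beside 898 and 425 of the 17438 genes. At the adjusted threshold limma without a trend also called 0 in each direction. The fitted slopes of the members lay between -0.27 and 0.30 per stage on the log2 scale, with a median standard error of 0.024. No member differed between stage 3 and any of stages 4 to 8 in the same limma framework. Of all genes 0.0401%, 0.0344%, 0.0344%, 0.0287% and 0.0975% were higher at stages 4, 5, 6, 7 and 8, and 0%, 0%, 0%, 0.00573% and 0.0975% were lower. At an unadjusted p under 0.05, between 1 and 7 members were higher and 1 or 2 were lower at these stages. Of the 17438 genes, between 521 and 1886 were higher and between 202 and 464 were lower.

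Without stages 6 and 7, whose samples share sorted values crosswise, 1 member rose and 1 fell over stages 3, 4, 5 and 8. This is 0.5% of the 200 in each direction, beside 1.25% and 0.401% of all genes. The highest mean among stages 3 to 8 was at stage 3 in 101 members (50.5%) and at stage 8 in 43 (21.5%), beside 19.4% and 25.7% of all genes. In replicate 1 of stage 3 the members lay at a median of 1.13 times their own bud mean, which was the highest of the 16 samples. The corresponding value was 0.939 in replicate 2 of that stage, and the lowest of the 16 was 0.902 in replicate 1 of stage 7. The 2 samples of stage 3 thus lay on either side of the bud mean.

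The adjusted bud values of most members varied little from sample to sample, also within the 8 stages. The coefficient of variation (CV, the SD over the mean) across the 16 bud samples had a median of 12.2% in the members and of 28.8% over all genes. It was under 20% in 127 members (63.5%) and in 28.5% of all genes. A CV of 50% or more was found in 19 members and in 4214 of the 17438 genes. Among the 200 tentacle genes that rose in buds, the median was 60.0%. Because the rule leaves out genes that rise from stage 1 to stage 10, it bears on bud variation, and these shares describe the list and test nothing. Across the 14 regeneration samples the median CV of the same members was 101%, against 32.1% over all genes, and it was under 20% in only 2 members. In the tentacle genes that rose in buds the regeneration median was 118%, with 1 gene under 20%, so that the wide spread there was not particular to the members. Most members thus varied little in buds, while 73 had a bud CV of 20% or more. Some members on different scaffolds held nearly the same adjusted value in every bud sample. Sc4wPfr_1206.g22418 and Sc4wPfr_39.2.g22039 both stood at 0.62 and 0.57 at stage 1 and at 0.53 and 0.61 at stage 10. Their tentacle samples were at 10.58 and 7.16 and at 6.49 and 10.85. How many members share bud values in this way was not counted, and the part of the adjustment in it was not tested.

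**Figure D2:**
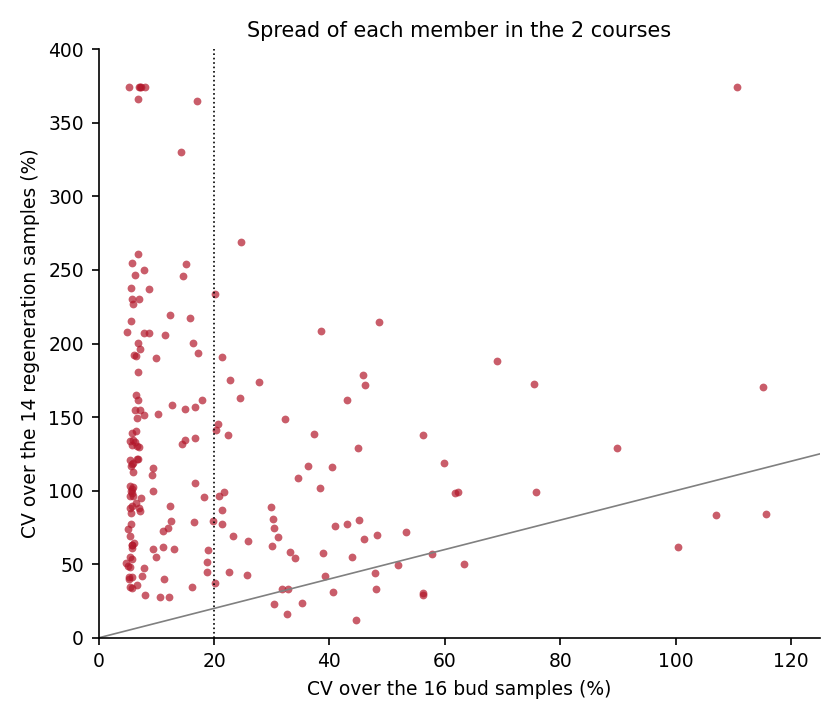
Coefficient of variation of each member over the 16 bud samples (horizontal, percent) and over the 14 regeneration samples (vertical, percent), 1 point per gene, without the 7 members listed at 0 in all regeneration samples. The dotted line marks a bud CV of 20%, the grey line marks equal values, and most points lie far above it with a median of 12.2% in buds and 101% in regeneration.

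The level that a member held in buds lay close to its own mean over the other samples. The mean over the 16 bud samples was a median of 91.7% of the mean over the 24 body map and regeneration samples, with quartiles of 87.7% and 94.2%. It was between 80% and 120% of that mean in 181 members (90.5%) and in 94.0% of all genes. The regeneration mean, by contrast, was between 80% and 120% of the body map mean in 7 members and in 33.3% of all genes. Closeness of the bud mean to the overall mean was therefore a property of the whole table and not of the members.

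Values of 0 were also distributed unequally between the courses. In buds 14 of the 3200 values of the members were 0 (0.438%), and in regeneration 865 of 2800 (30.9%). Over all genes the shares were 1.85% and 5.88%. There were 7 members listed at 0 in all 14 regeneration samples, and none of their 112 bud values was 0, with a range from 0.59 to 39.08 adjusted TPM. Sc4wPfr_106.g23603 and Sc4wPfr_197.g11032 are among them. There were 3 members at 0 in all 22 samples other than buds and tentacles. The methods name a removal of batch effects from the TPM, the batches are not named in the sources used here, and values before that step were not analysed. A batch that coincides with the budding course cannot be told apart from the course, and the part of the adjustment in the level bud values was not tested. For this reason no test of bud levels against those of tissues or regeneration times is given, and the tests concern changes within a course or the difference between the changes of both courses.

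In regeneration the 200 genes were low at first and were higher at 48 h. Their median adjusted TPM was 0.643 at 0 h, 0.580 at 2 h, 0.468 at 4 h, 0.593 at 6 h, 0.940 at 12 h, 0.742 at 24 h and 2.15 at 48 h. The single samples had medians of 0.595 and 0.520 at 0 h, of 1.08 and 0.910 at 12 h, of 0.675 and 0.630 at 24 h and of 2.13 and 2.20 at 48 h. The 48 h samples thus stood above all others, and the 12 h samples stood above those of 24 h. The number of members listed at 0 was 63 and 67 in the 0 h samples and 22 and 16 in the 48 h samples. Of the 193 members above 0 at any time, 122 (63.2%) had their highest mean at 48 h and 36 at 12 h, beside 20.3% and 14.4% of all genes at these times. In the tentacle genes that rose in buds, 188 of 196 (95.9%) were highest at 48 h and 4 at 12 h. Of the 43 members at 0 in both 0 h samples, 27 were above 0 in both 48 h samples. Genes at 0 can only stay there or go up, and the same share over all genes was not counted.

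Because the rule used no regeneration sample, this course could be tested. At 48 h, 73 of the 200 genes were higher than at 0 h and 2 were lower in limma at a Benjamini-Hochberg adjusted p under 0.05. The shares over all genes fitted were 9.84% higher and 11.1% lower, so that the 36.5% of members that rose lay well above the background and the 1% that fell lay below it. Both 48 h samples lay above both 0 h samples in 135 members (67.5%) and below them in 8 (4%), beside 27.5% and 37.2% of all genes. The ratio of 48 h to 0 h, each mean plus 1, had a median of 1.69 over all 200 members with quartiles of 1.18 and 2.26, and a median of 0.961 over all genes. It was 2-fold or more upward in 70 members (35%) and 2-fold or more downward in 3. Of the 17438 genes, 7.47% were 2-fold or more upward and 686 were 2-fold or more downward. The test covered 187 of the 200 members, since genes had to be above 0 in at least 2 of the 14 samples, and members outside it are counted as not called.

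The size of this count rested on the end samples. Without replicate 2 of 0 h or without replicate 1 of 48 h the share of members higher at 48 h was 15.5%, without replicate 2 of 48 h it was 19%, and without replicate 1 of 0 h it was 24%. The shares over all genes were then 4.39%, 4.32%, 5.6% and 6.51%. The members' share was above the background in each case.

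Fewer members were called at earlier times. At 2 h 5 members were higher and 0 lower (0.185% and 0.0347% of all genes), at 4 h 4 and 0 (0.278% and 0.0578%), and at 6 h 3 and 0 (0.295% and 0.0231%). At an unadjusted p under 0.05, 10, 11 and 14 of 187 members fitted were higher and 4, 7 and 6 were lower at these times in limma. Of the 17287 genes fitted, 838, 676 and 871 were higher and 731, 1024 and 694 were lower. At the adjusted threshold the shares of members called higher were small but above those of all genes. The ratio to 0 h, each mean plus 1, was 2-fold or more upward in 9, 13 and 18 members and 2-fold or more downward in 7 at each time. At 12 h 27 members were higher and 4 lower (6.51% and 10.3% of all genes), and at 24 h 10 were higher and 3 lower (2.63% and 4.44%). The median ratios to 0 h were then 1.06 and 1.02, beside 0.957 and 0.966 over all genes. All 6 comparisons share the 0 h samples, so that their counts are not independent.

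**Figure D3:**
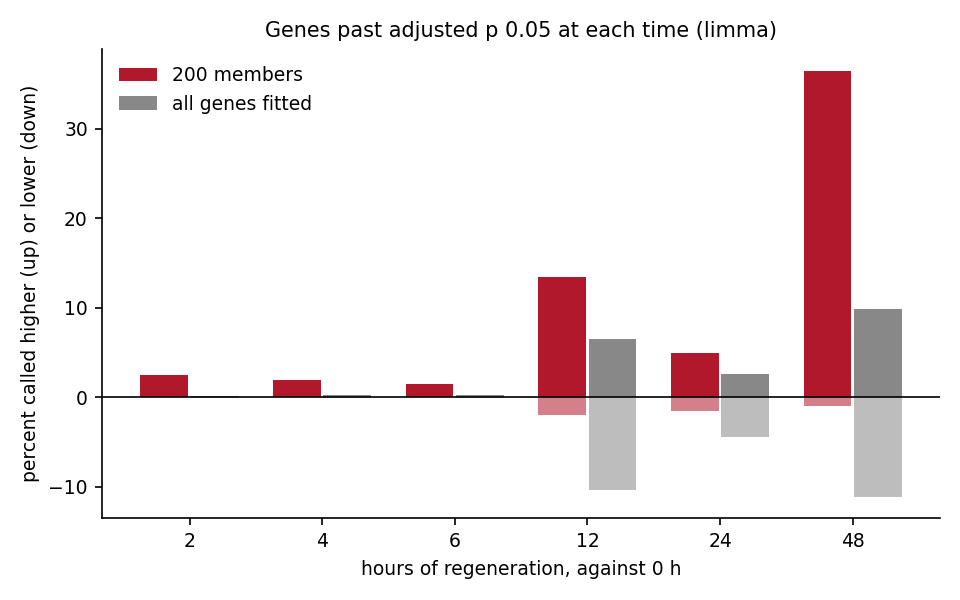
Percent of the 200 members (red) and of all genes fitted (grey) called higher (above the line) or lower (below the line) than at 0 h in limma, at each hour of regeneration. The members stand at 36.5% higher and 1% lower at 48 h, and all genes at 9.84% and 11.1%.

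Over the order of the 7 times, 49 of the 200 genes rose and 2 fell in limma at a Benjamini-Hochberg adjusted p under 0.05. Of all genes 10% rose and 16.9% fell, so that the members' 24.5% and 1% lay above and below the background. At an unadjusted p under 0.05, 84 members rose and 2 fell, beside 2723 and 4154 of the 17287 genes fitted. With hours in place of the order, which gives more weight to 48 h, 37% of the members and 11.3% of all genes rose. Without replicate 1 or replicate 2 of 48 h the share was 13.5% or 15%, beside 6.12% and 6.69% of all genes. The 200 tentacle genes that rose in buds, read in the same samples, gave 121 that rose and 0 that fell over the course, and 170 higher and 0 lower at 48 h. Their median ratio of 48 h to 0 h was 4.55. Their tentacle means were larger too, with a median of 95.9 adjusted TPM against 22.6 in the members, and both lists were chosen from the readout, so that the difference between them was not tested.

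Among the members called, Sc4wPfr_251.g2420 and Sc4wPfr_520.g29352 rose most from 0 h to 48 h. Sc4wPfr_251.g2420 stood at 1.54 and 0 adjusted TPM at 0 h, at 0 in both samples of 2 h and 24 h, and at 52.07 and 73.92 at 48 h. Both 48 h samples were above the 12 others, the highest of which was at 15.10, and above the hypostome samples at 15.44 and 0. The fitted log2 change from 0 h to 48 h was 5.31 (SE 1.32, limma adjusted p = 0.0204) on the log2(value + 1) scale, which understates changes of low genes. Its tentacle samples, at 927.66 and 822.64, were far above the level reached at 48 h, and its bud samples lay between 64.72 and 77.12.

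Sc4wPfr_520.g29352, the member with the highest tentacle level, stood at 145.06 and 8.51 adjusted TPM at 0 h. It was at 279.47 and 262.32 at 12 h, at 133.06 and 198.68 at 24 h and at 957.49 and 1105.79 at 48 h. The 48 h samples were above the 12 others, and the 0 h samples differed widely from each other. The fitted log2 change from 0 h to 48 h was 4.79 (SE 1.00, limma adjusted p = 0.0101). The bud samples of this gene lay between 681.23 and 816.35.

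Sc4wPfr_458.g6403 had the steepest rise over the whole course among the members called. Its values were 18.84 and 6.15 adjusted TPM at 0 h, 41.00 and 0 at 2 h, 17.85 and 43.00 at 4 h, 31.56 and 50.29 at 6 h, 76.05 and 62.94 at 12 h, 71.99 and 100.80 at 24 h and 227.75 and 192.59 at 48 h. All samples from 12 h on were above all samples up to 6 h. The fitted slope was 0.76 per time on the log2 scale (SE 0.16, limma adjusted p = 0.00502). Its bud samples lay between 94.33 and 137.26, and its tentacle samples were at 852.15 and 743.07.

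Sc4wPfr_6.1.g552 rose earlier and did not peak at the end. It stood at 4.39 and 0 adjusted TPM at 0 h, at 8.25 and 11.47 at 6 h, at 34.14 and 51.74 at 12 h, at 15.42 and 17.57 at 24 h and at 20.84 and 24.97 at 48 h. Its highest samples were those of 12 h, and the 24 h and 48 h samples stayed above all samples up to 6 h. The fitted slope was 0.69 per time (SE 0.13, limma adjusted p = 0.00326). With hours as the time axis its adjusted p was 0.0564. Its tentacle samples were at 176.60 and 180.14, and its bud samples lay between 23.13 and 28.42.

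Few members fell. Sc4wPfr_388.1.g10230 stood at 16.17 and 12.45 adjusted TPM at 0 h, at 19.21 and 17.18 at 6 h, at 13.55 and 4.77 at 12 h and at 6.84 and 8.40 at 48 h. It was thus level until 6 h and lower from 24 h, and its slope was -0.22 per time (SE 0.06, limma adjusted p = 0.0158). It was present at 10.25 to 25.34 in the 8 body map samples outside the tentacles, where it reached 144.01 and 172.90.

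Sc4wPfr_629.g5416 stood at 3.70 and 2.09 adjusted TPM at 0 h, at 0.90 and 0.86 at 6 h, at 0 in both samples of 12 h and at 0.26 and 1.12 at 48 h. Its lowest samples were those of 12 h. The slope was -0.22 per time (SE 0.06, adjusted p = 0.0135) and the log2 change from 0 h to 48 h was -1.22 (SE 0.26, adjusted p = 0.0103), both in limma. The slope was not past the threshold with a pseudocount of 0.1 (adjusted p = 0.0648) or over hours (adjusted p = 0.191), and this gene was low even in tentacles, at 10.95 and 10.75. The other member lower at 48 h, Sc4wPfr_2269.g30929, stood at 2.36 and 3.49 at 0 h, at 4.04 and 4.11 at 6 h, at 4.04 and 3.72 at 12 h and at 1.75 and 1.09 at 48 h. It was thus highest at 6 h and 12 h, and its log2 change to 48 h was -0.70 (SE 0.22, limma adjusted p = 0.0481).

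**Figure D4:**
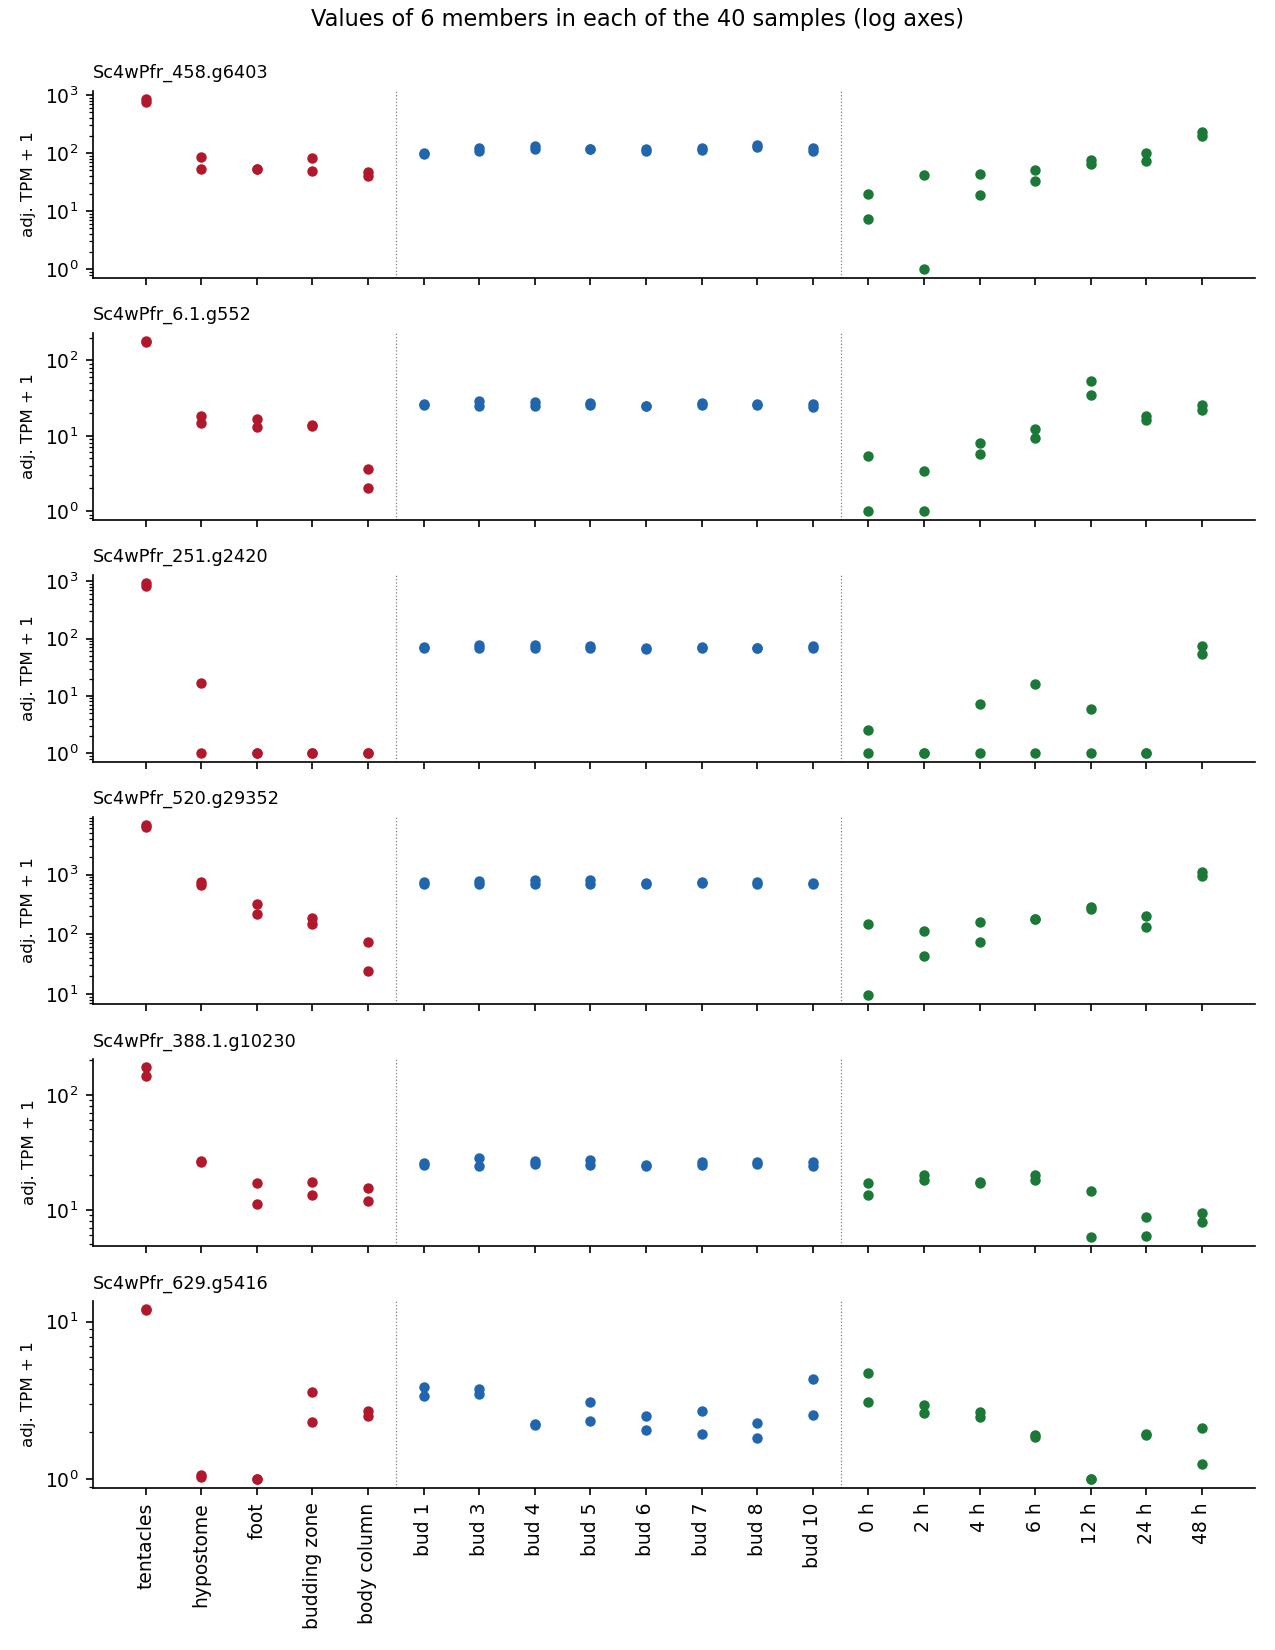
Adjusted TPM plus 1 (log axes) of 6 members in each of the 40 samples, 1 point per sample, in tissues (red), buds (blue) and regeneration (green). The first 4 genes end regeneration above both of their 0 h samples and the last 2 end below them, and the bud points of the first 5 lie close together.

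The level reached at 48 h was well below that of adult tentacles. The 48 h mean was a median of 11.4% of the tentacle mean over the 200 members and no member reached its tentacle mean. The rule chose genes for high tentacle values, so that a 48 h level below tentacles was favoured by the choice. In the 200 tentacle genes that rose in buds the median was 10.8%, and 0 reached the tentacle mean. Of the 17438 genes, 7644 had a 48 h mean at or above that of tentacles. Among the 73 that were higher at 48 h the share ran from 1.71% to 51.0%, with a median of 12.6%. The 48 h mean was above that of the adult hypostome in 119 members, a count that the low hypostome values set by the rule also favour. The tentacle and regeneration samples are of different tissue extent, and how much tentacle tissue the 48 h samples held was not measured.

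Counts at 48 h are also given by the second tissue, by tentacle level and by bud variation. Of the 119 members with the hypostome as the second tissue 50 were higher at 48 h, and of the 39 with the foot 15. Of those with the budding zone or the body column there were 4 of 21 in each. Of the 109 members with a tentacle mean of 20 or more 46 were higher at 48 h (42.2%), and of the 91 others 27 (29.7%). Of the 127 members with a bud CV under 20%, 46 were higher at 48 h, and of the 73 others 27. The differences between these subsets were not tested.

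Regeneration and budding were compared by the slope of each gene over regeneration minus its slope over bud stages 3 to 8, with each course scaled from 0 at its first to 1 at its last condition. In this limma interaction 8 of the 200 genes had a higher slope in regeneration and 0 a lower one at a Benjamini-Hochberg adjusted p under 0.05. The shares over all genes were 0.7% and 0.728%, beside 4% and 0% of the members. At an unadjusted p under 0.05 the counts were 57 and 1, beside 1036 and 1942 of the 17438 genes. The 200 tentacle genes that rose in buds gave 16 (8%) and 0 at the adjusted threshold, and 78 and 0 at the unadjusted one. A higher slope in regeneration was thus not particular to the members, and the difference between the lists was not tested. Of the 8 genes, 7 had a bud CV under 20% and are therefore among those with nearly constant bud values. In Sc4wPfr_458.g6403 the difference was 4.42 on the log2 scale (SE 1.05, limma adjusted p = 0.033), and in Sc4wPfr_6.1.g552 it was 4.18 (SE 0.85, adjusted p = 0.0132). Their slopes over bud stages 3 to 8 were 0.02 and -0.01 per stage, with an SE of 0.02 each. In the adjusted values both genes thus moved in regeneration and were level over these bud stages.

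That count changed with single samples. It was 1% of the members without replicate 1 or 2 of bud stage 8 or replicate 1 of 48 h, beside 0.315%, 0.333% and 0.367% of all genes. It was 2% without replicate 1 or 2 of bud stage 3 or replicate 2 of 48 h, beside 0.585%, 0.47% and 0.591%. It was 2.5% without replicate 2 of 2 h, 6.5% without replicate 2 of 24 h and 8% without replicate 1 of 0 h, beside 0.51%, 0.745% and 1.05%. Without bud stages 6 and 7 it was 2%, beside 1.26% of all genes, and among the 73 members with a bud CV of 20% or more it was 1.37%.

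The members were spread over 157 of the 1527 scaffolds, with at most 4 on one of them, Sc4wPfr_87. A member was next to another in the order of listed models on its scaffold in 35 cases (17.5%), in 16 runs of 2 genes and 1 run of 3. The share was 19.0% in the tentacle genes that rose in buds. A neighbour that met the tentacle conditions was found for 48.5% of members, 42.3% of all tentacle genes and 25.5% of all genes. In 2 of the 17 runs every member was higher at 48 h, in 9 none was and in 6 some were, so that calls differed between neighbours in those 6. Model numbers give order and not distance, and similarity of sequence within the runs was not tested.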

How the data were processed

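RNA-seq values of 40 H. vulgaris samples were used. The authors trimmed reads with Trimmomatic 0.35, mapped them to a transcriptome with Bowtie 1.2, estimated TPM with RSEM 1.2.31, removed batch effects with ComBat and applied qsmooth. The deposited values are taken here as a signal (adjusted TPM), since column sums differ and 18 of 20 conditions share sorted values within 0.011. Tests planned for TPM were applied without change. Counts were not used, so that depth and precision are unknown. Per-sample columns left unused numbered 0, and the files held no comparisons of the authors.

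Columns were assigned to samples by name and to conditions by the labels. The members, lists and tests were chosen with earlier results of these data known. Genes above 0 in at least 2 fitted samples were analysed as log2(value + 1) with limma 3.58.1 in R 4.3.3 (lmFit, eBayes with a trend). Regeneration was fitted in its 14 samples, bud stages 3 to 8 in 12 and their interaction in 26. The tests were two-sided, with Benjamini-Hochberg adjustment over all genes fitted and a threshold of 0.05. Tables and figures were made with Python 3.11.15, pandas 2.3.3, numpy 2.4.6 and matplotlib 3.10.9. The fits were also run on simulated data with independent normal noise. These lacked the shared sorted values of the real samples, so that they cannot show whether the p-values are too small.

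Genes were named by a rule, as up to 2 rising and 2 falling per comparison among members past the threshold whose end conditions did not overlap, and as the 2 highest tentacle ratios, the 2 highest tentacle levels and the genes at the limits of the choice. Sc4wPfr_39.g20537 was added after its values were seen. Planned lists of nematocyte, head, foot and cell type genes were not used, because the identifiers have no names. Alternatives were no filter, a minimum of 1 in 2 samples, a pseudocount of 0.1, scaling by quantiles or median ratios, a block for the replicate number, hours and stage numbers as axes, limma without a trend, other choices of members, fits without bud stages 6 and 7 and without each sample. The list of members with a bud CV of 20% or more was added after seeing the data.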

Additional observations from a re-analysis of the deposited data

Results flagged for a closer look

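The slope over regeneration was higher than that over bud stages 3 to 8 in 8 of the 200 genes, by the limma interaction of both courses with Benjamini-Hochberg adjustment over all genes, and was lower in 0, beside 0.7% and 0.728% of all genes. At an unadjusted p under 0.05 the counts were 57 and 1 of the 200, and 1036 and 1942 of the 17438 genes. The 200 tentacle genes that rose in buds gave 16 and 0 at the adjusted threshold, so that this result was not particular to the members. Leaving out single samples took the count of 8 to between 2 and 16. Among the 8, Sc4wPfr_458.g6403 had a difference of 4.42 (SE 1.05, limma adjusted p = 0.033) and Sc4wPfr_6.1.g552 one of 4.18 (SE 0.85, adjusted p = 0.0132), both on the log2 scale from the first to the last condition of a course. Both rose in regeneration and were level over bud stages 3 to 8, and the part of the batch adjustment in the level bud values was not tested. Outside these stages, the mean of Sc4wPfr_458.g6403 was lower at stage 1 (96.2 adjusted TPM) than at stage 10 (114). Groups of 2 samples were too small to look for single outlying samples.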

How the results depend on the processing

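Values are percents of the members called in limma at a Benjamini-Hochberg adjusted p under 0.05. Over the regeneration course 24.5% rose and 1% fell, which became 37% rising over hours and 15% rising and 2.5% falling in genes with bud stage 10 below 1.0 times stage 1. The falling share was 0.5% with a pseudocount of 0.1 and in members chosen from replicate 2 alone, and 4.36% in all 665 genes that meet the conditions. At 48 h 36.5% were higher and 1% lower, which became 22.7% and 2.11% in the 665 genes, and 22% were higher in genes with bud stage 10 below 1.0 times stage 1. The lower share was 0.5% with median-ratio scaling, 0.5% with the replicate block and 0% in members chosen from replicate 2. Over bud stages 3 to 8, 0.5% rose and 0.5% fell without stages 6 and 7. The share of 4% with a higher slope in regeneration than in buds became 2.5% with a pseudocount of 0.1, 11.5% with hours and stage numbers, 2% without stages 6 and 7 and 1.37% in members with a bud CV of 20% or more. The share with a lower slope became 0.301% in the 665 genes and 0.5% in members chosen from replicate 2. The causes were not tested.

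Leaving out each sample in turn gave 13.5% to 27.5% rising and 1% falling over regeneration, 15.5% to 37.5% higher and 0% to 1% lower at 48 h, 0% in each direction over bud stages 3 to 8, and 1% to 8% with a higher and 0% with a lower slope in regeneration. The lower share at 48 h was 0% without replicate 1 of 48 h and 0.5% without replicate 1 of 0 h, replicate 2 of 48 h or any sample of 6 h or 24 h. The samples were treated as unpaired. Deviations of same-numbered samples had a median correlation of 0.0133 over 21 pairs of regeneration times (-0.102 to 0.211, 4 above 0.1). Over 15 pairs of bud stages the median was -0.0202 (-0.258 to 0.361, 1 above 0.1). The values had been adjusted for batch effects before, so that these correlations cannot show whether replicate numbers paired the samples. With the replicate block 23.5% rose over regeneration, 35% were higher at 48 h and 4% had a higher slope in regeneration.

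Median-ratio scaling changed the balance over all genes, from 1734 rising and 2927 falling over regeneration to 2281 and 1711, from 1701 higher and 1913 lower at 48 h to 2080 and 1015, and from 122 and 127 in the interaction to 145 and 63 (130 and 83 with quantile normalization). It moved the median interaction of all genes from -0.11 to 0.02 on the log2 scale, and the members' shares were then 28.5% rising, 39% higher at 48 h and 4.5% with a higher slope. Of 315 slopes of named genes under alternatives, 310 were counted as unchanged, 3 lost the call and 2 gained it. Among slopes called in the main fit 0 turned direction. A change of sign in a slope that was not called counted as unchanged. With single samples left out, the slope of Sc4wPfr_6.1.g552 over bud stages 3 to 8 ran from -0.023 to 0.002. Depth is unknown, so that a listed 0 cannot be set against a detection limit.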
